A study of Mus musculus with 3 samples.

Results

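The genes described here are the mouse Wnt ligands, their receptors and the secreted and membrane proteins that adjust their signal, read in 3 edited Dmdmdx; Pax7-nGFP myoblast lines. Members were taken by symbol among protein-coding genes: the Wnt, Fzd, Dkk and Rspo families, Sfrp1 to Sfrp5, Lgr4 to Lgr6, and Lrp5, Lrp6, Ror1, Ror2, Wif1, Axin2, Znrf3 and Rnf43. The rule found 52 genes of 21856 protein-coding genes, or of 35562 genes in all, and it used no measured value. No gene carries the symbol Sfrp3, whose usual name Frzb the rule does not match. The members comprise 19 Wnt ligands, 10 Frizzled receptors, 4 co-receptors, 7 R-spondins and Lgr receptors, 9 secreted antagonists and 3 feedback genes.

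Lines 66, 67 and 72 are cultures of myoblasts, the proliferating progeny of satellite cells, which are the stem cells of skeletal muscle. Their satellite cells came from muscle of mouse-mouse chimeras and derive from injected induced pluripotent stem cells (iPSCs) of the Dmdmdx; Pax7-nGFP genotype. In these iPSCs the mdx mutation, a premature stop in the dystrophin gene, had been bypassed by CRISPR/Cas9 exon skipping, and a Pax7-driven nuclear GFP marks satellite cells. All 3 lines share the mdx allele, the edit, the reporter, reprogramming with a STEMCCA cassette and passage through a chimera, and the edit was verified in 1 iPSC clone, so the lines may represent 1 edited genome. The labels give neither the chimera behind a line nor whether it received tamoxifen to ablate host satellite cells, and no control library was analysed here. The lines therefore form 1 condition, no test between conditions was possible, and a mean ± SD below is over n = 3 lines with 1 library each.

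Wnt proteins are lipid-modified secreted ligands that bind a Frizzled receptor. Together with Lrp5 or Lrp6 they stabilise β-catenin, which enters the nucleus and activates target genes with Tcf and Lef factors, while Ror receptors serve β-catenin-independent signals. In skeletal muscle, Wnt signals are known for roles in embryonic myogenesis, satellite cell self-renewal and differentiation after injury.

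Levels are given in TPM, the estimated counts of a transcript divided by its effective length and scaled to a fixed library total, summed per gene, so that levels of different genes can be compared. Libraries held between 66972426 and 73274315 estimated counts. A gene at 0 counts could still hold up to 3 counts, or 0.0409 to 0.0448 CPM (estimated counts per 1000000), and all such limits and intervals cover counting error only. All 8 myoblast markers examined, Pax7, Myf5 and Myod1 among them, had at least 10 TPM in every line. Endothelial (4 of 4) and pluripotency (6 of 6) markers stayed below 1 TPM in every line, as did 5 of 6 fibroblast markers, with Lum and Dpt at 0. The sixth, Col15a1, had 0.0538, 1.88 and 3.45 TPM in lines 66, 67 and 72. Of 4 immune markers, Ptprc and Itgam were below 1 TPM in every line and the highest value was 4.23 TPM for Cd68. In bulk RNA, fewer expressing cells and less RNA per cell cannot be told apart.

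Receptors were read more widely than ligands. Of the 52 members, 20 (38.5%) reached 1 TPM in every line, against 51.9% of all protein-coding genes. They were 8 Frizzled receptors, 4 Wnt ligands, 3 Lgr receptors, both Lrp co-receptors, 2 secreted frizzled-related proteins and Znrf3. Dkk3, Ror2 and Wnt5b reached 1 TPM in some lines only, and 29 members stayed below 1 TPM in every line. Only 5 members, Lrp5, Lrp6, Fzd3, Fzd7 and Sfrp2, had at least 10 TPM in every line (9.62%, against 36.3% of protein-coding genes). Estimated counts were 0 in all lines for 8 members (15.4%, against 18% of protein-coding genes): Wnt1, Wnt3a, Wnt7a, Wnt8b, Wnt9b, Fzd10, Sfrp5 and Dkk4. The median level of the 52 members was 0.48 ± 0.03 on the log2(TPM + 1) scale, and that of all protein-coding genes 1.60 ± 0.06.

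**Figure D1:**
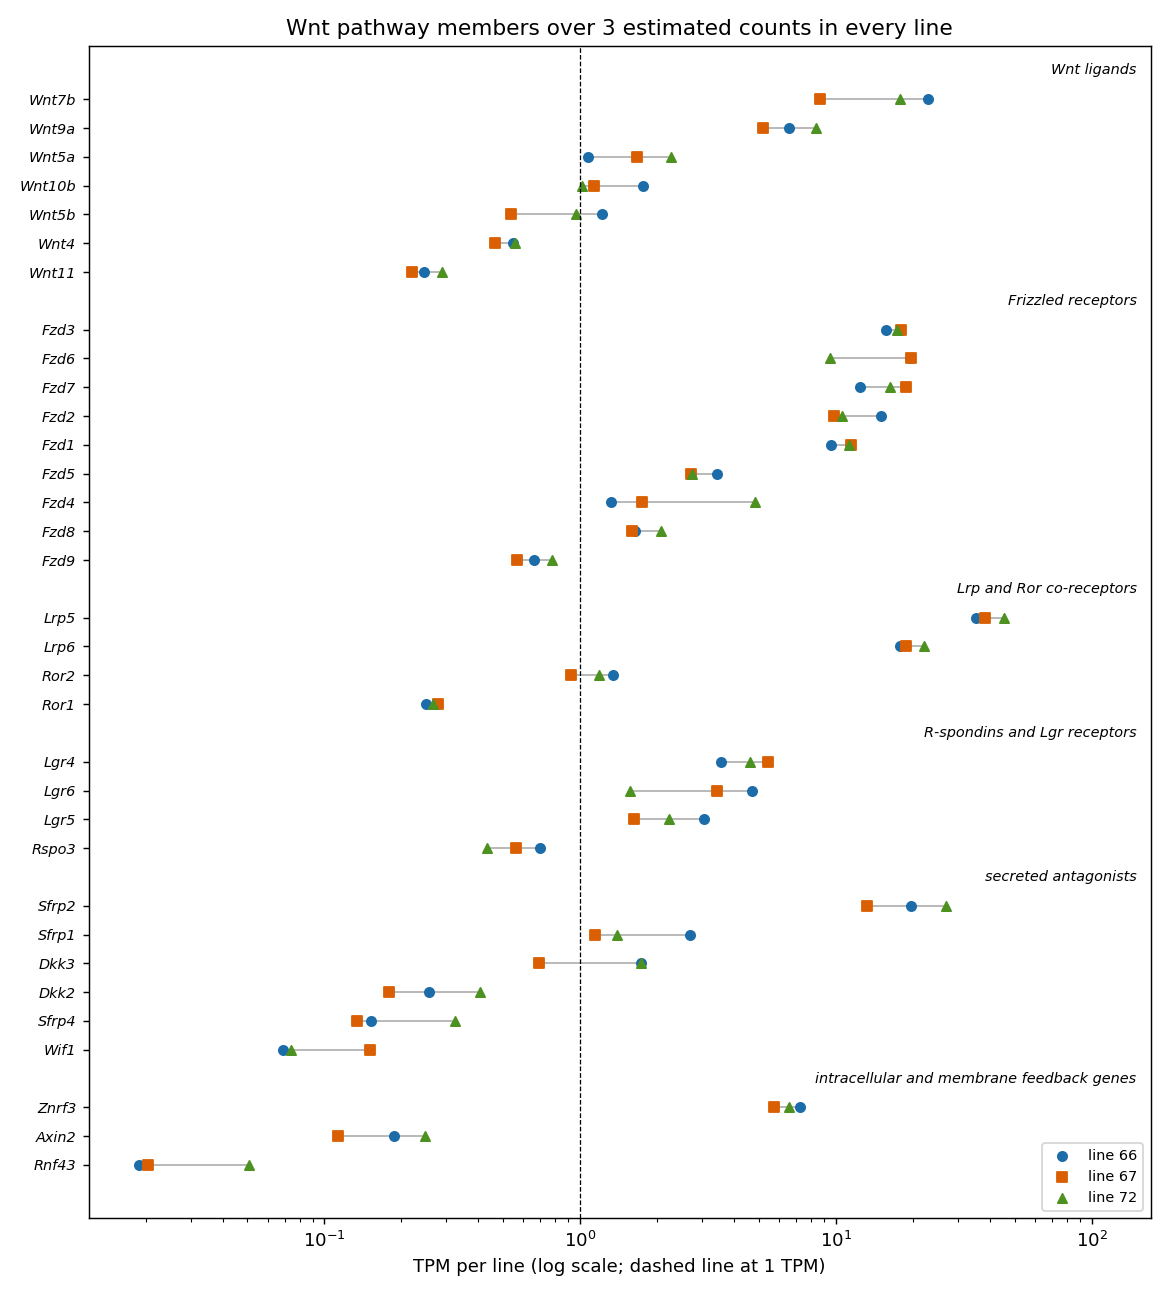
Level of the 33 members with more than 3 estimated counts in every line, grouped by role. The x axis is TPM on a log scale, each point is 1 line (circle 66, square 67, triangle 72), the grey bar joins the lowest and highest line and the dashed line marks 1 TPM; Lrp5 is the highest in every line, and Axin2 and Rnf43 lie below 1 TPM beside Znrf3 near 6.50 TPM.

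The ligands were dominated by Wnt7b and Wnt9a. Wnt7b, a ligand best known from lung, kidney and vascular development, had 23.0 TPM in line 66, 8.65 TPM in line 67 and 17.8 TPM in line 72. It made up 66.6%, 48.1% and 56.7% of the summed ligand TPM in lines 66, 67 and 72. Wnt9a, known from joint and skeletal development, had 6.54, 5.18 and 8.40 TPM in the same order of lines and supplied 24.8 ± 5.20% of the ligand sum. Wnt7b exceeded Wnt9a in each line, by 3.51, 1.67 and 2.12 times, and line 67 was lowest for both. For Wnt9a this depended on the shift of chromosome 11 described with the line differences, as line 66 was its lowest line once that shift was removed. No other ligand reached 3 TPM in any line.

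Wnt5a, the archetypal β-catenin-independent ligand, had 1.08, 1.67 and 2.26 TPM in lines 66, 67 and 72. Wnt10b, a ligand that restrains adipocyte formation and favours bone, had 1.76, 1.13 and 1.02 TPM. The ranges of Wnt5a and Wnt10b over the lines overlapped, so their order is not fixed by these data. Wnt5b ranged from 0.535 to 1.21 TPM, Wnt4 from 0.463 to 0.555 TPM and Wnt11 from 0.221 to 0.288 TPM. Among the other 12 ligands, Wnt6, Wnt10a and Wnt3 exceeded 3 counts in some lines only, with at most 8 counts. Wnt2, Wnt2b, Wnt8a and Wnt16 had at most 2 counts, and the remaining 5 had none.

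For the leading ligands, the close relative carried no reads. Wnt7b and Wnt7a are 74.9% identical over their aligned coding bases, yet Wnt7a had no count, so Wnt7b stood at least 376-fold above the limit of 3 counts for Wnt7a in the line with the smallest gap. Wnt9a stood at least 327-fold above its relative Wnt9b and at least 194-fold above Wnt3a, the protein-coding gene next to it on chromosome 11. Of the 4 pairs of ligand genes that lie next to each other, Wnt3a with Wnt9a, Wnt9b with Wnt3, Wnt1 with Wnt10b and Wnt6 with Wnt10a, 2 held 1 member with at least 1 TPM in every line and 2 held none.

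The coding stretches in which Wnt7b and Wnt7a resemble each other most are shown because they bear on whether reads could be assigned to the right gene. They are 60 bases each, positions 982 to 1041 of the Wnt7b-201 and 961 to 1020 of the Wnt7a-201 coding sequence in GENCODE M21 (GRCm38), read 5′ to 3′ from the start codon, with the 4 positions that differ in capitals.
Wnt7b: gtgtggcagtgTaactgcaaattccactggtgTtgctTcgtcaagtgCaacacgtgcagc
Wnt7a: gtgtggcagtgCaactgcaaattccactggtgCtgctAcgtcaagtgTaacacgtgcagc
The longest run of bases found in both coding sequences, at any position, was 23 bases, and no 31-base word of the Wnt7a transcripts occurred in another gene. Wnt7b shared 4.82% of its 31-base words with the gene AU022754.

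Wnt5a and Wnt5b were the only close pair of ligands in which both partners had more than 3 counts in every line, which is why their most alike stretches are shown too (positions 961 to 1020 of Wnt5a-201 and 937 to 996 of Wnt5b-203, with 3 differing positions in capitals).
Wnt5a: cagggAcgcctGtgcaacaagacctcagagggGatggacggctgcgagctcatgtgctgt
Wnt5b: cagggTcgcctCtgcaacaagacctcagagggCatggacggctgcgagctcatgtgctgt
Over the coding sequence the pair was 75.5% identical with a longest shared run of 29 bases. Dividing Wnt5a by Wnt5b TPM gave 0.888, 3.11 and 2.35 for lines 66, 67 and 72, so Wnt5a was the higher partner in lines 67 and 72. In line 66 Wnt5a had 1.08 TPM from 255 counts and Wnt5b 1.21 TPM from 131 counts. No interval was computed for that ratio, so the order in line 66 is not settled.

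Frizzled receptors, the membrane proteins that bind Wnt ligands, were the class with the highest sum. Lines 66, 67 and 72 had summed Frizzled TPM of 79.3, 84.6 and 75.3, a 1.12-fold range, while the ligands summed to 34.5, 18.0 and 31.4 TPM, a 1.92-fold range. Fzd3, Fzd6, Fzd7, Fzd2 and Fzd1 formed an upper tier with means between 10.8 and 17.0 TPM. Fzd7, a receptor known from satellite cell expansion in response to Wnt7a, had 12.4, 18.9 and 16.3 TPM in lines 66, 67 and 72. Fzd3, which serves axon guidance and planar cell polarity, had 15.7, 18.0 and 17.3 TPM. On its protein_coding transcript alone Fzd3 had 10.9, 10.5 and 12.2 TPM, a mean of 11.2 TPM, so that line 67 turned from its highest line to its lowest. Fzd6, a planar polarity receptor of skin and hair, had 19.5, 19.7 and 9.49 TPM. Within this tier the ranges of neighbours in the order of means overlapped.

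Fzd2 had 15.0, 9.88 and 10.5 TPM and its relative Fzd1 had 9.58, 11.5 and 11.2 TPM in lines 66, 67 and 72. Each supplied a similar part of the Frizzled sum, 14.9 ± 3.70% for Fzd2 and 13.5 ± 1.43% for Fzd1. Fzd5, Fzd4 and Fzd8 formed a lower tier. Fzd5 had 3.43, 2.71 and 2.73 TPM, Fzd4, the receptor for Norrin in retinal vessels, had 1.32, 1.74 and 4.84 TPM, and Fzd8 had 1.64, 1.60 and 2.08 TPM. The lowest line of every upper-tier receptor lay above the highest line of every lower-tier receptor. Fzd9 ranged from 0.567 to 0.778 TPM and Fzd10 had no count, which placed Fzd7 at least 607-fold above the limit for Fzd10. Fzd5 shared 17.0% of its 31-base words with the gene Gm38058, so its counts are less certain than those of the other Frizzled genes.

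Fzd1, Fzd2 and Fzd7 encode the most alike receptors of this tier, with 76.6% identity of coding bases between Fzd2 and Fzd7, and their most alike 60-base stretches are shown with the 4 positions that differ among them in capitals (positions 130 to 189 of Fzd7-201, 316 to 375 of Fzd1-201 and 115 to 174 of Fzd2-201).
Fzd7: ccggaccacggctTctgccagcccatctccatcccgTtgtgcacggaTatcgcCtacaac
Fzd1: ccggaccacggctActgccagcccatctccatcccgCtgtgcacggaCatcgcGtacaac
Fzd2: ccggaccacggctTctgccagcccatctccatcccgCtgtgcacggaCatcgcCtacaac
Fzd1 shared runs of up to 47 bases with both others. All the same, at least 98.1% of the 31-base words of each gene occurred in no other gene, so the split of reads among them rested on mostly unshared sequence.

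The β-catenin co-receptors Lrp5 and Lrp6 were both present, at a near-constant ratio as long as no chromosome shift was removed. Lrp5 had 35.5, 38.2 and 45.3 TPM in lines 66, 67 and 72, and was the highest member in every line, above 82.0% of protein-coding genes by its mean. Lrp6 had 17.8, 18.8 and 22.1 TPM. The ratio of Lrp5 to Lrp6 was 2.03 ± 0.0267, at most 2.05 in any line. Lrp5 made up 65.4 ± 0.593% and Lrp6 32.3 ± 0.150% of the summed co-receptor TPM. With the chromosome shifts described with the line differences removed, the range between lines was 1.28-fold for Lrp5 and 1.10-fold for Lrp6. The near-constant ratio therefore depended in part on the shift of chromosome 6, on which Lrp6 lies. Ror2, the Wnt5a receptor, ranged from 0.922 to 1.35 TPM and its relative Ror1 from 0.249 to 0.278 TPM.

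R-spondins are secreted proteins that amplify Wnt signals by binding Lgr receptors and removing the ubiquitin ligases Znrf3 and Rnf43 from the membrane. In the 3 lines the receptors were read and the ligands were low. The Lgr genes summed to 11.3, 10.5 and 8.41 TPM in lines 66, 67 and 72, and the 4 R-spondins to 0.738, 0.607 and 0.613 TPM. Lgr4, the broadly expressed receptor, had 3.56, 5.43 and 4.60 TPM. Lgr5, a marker of intestinal stem cells, had 3.05, 1.62 and 2.24 TPM, and Lgr6, a marker of skin stem cells, had 4.69, 3.43 and 1.57 TPM. No Lgr gene led in every line. Lgr4 was highest in line 67, and Lgr5 and Lgr6 were highest in line 66. On protein_coding transcripts alone, Lgr5 had 2.18 TPM in line 66 and 2.07 TPM in line 72. Lgr5 also lies on chromosome 10, which was shifted in line 66 as described with the line differences. The highest R-spondin in every line was Rspo3, with 71, 63 and 50 counts and 0.695, 0.560 and 0.432 TPM in lines 66, 67 and 72. Rspo3 shared 12.2% of its 31-base words with the gene Gm48159. Rspo1, Rspo2 and Rspo4 had at most 10 counts.

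Secreted antagonists were represented mainly by Sfrp2, which binds Wnt proteins outside the cell. Sfrp2 had 19.7, 13.2 and 26.9 TPM in lines 66, 67 and 72, which was 84.1 ± 3.68% of the summed antagonist TPM. Sfrp1 had 2.70, 1.14 and 1.39 TPM, so Sfrp2 was higher by 7.30, 11.6 and 19.3 times. Dkk3, a divergent Dickkopf protein, had 1.73, 0.690 and 1.73 TPM. The Dickkopf proteins that block Lrp5 and Lrp6 were lower: Dkk2 ranged from 0.180 to 0.407 TPM, Dkk1 had at most 4.05 counts and Dkk4 none. Sfrp4 had at most 0.325 TPM and Wif1, a Wnt-binding inhibitor, at most 0.151 TPM, while Sfrp5 had no count. Sfrp2 shared 13.7% of its 31-base words with the gene Gm26771.

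Of the 3 feedback genes, which signalling through β-catenin induces and which then restrain it, Znrf3 alone was above 1 TPM. Znrf3 had 7.22, 5.72 and 6.55 TPM in lines 66, 67 and 72, while its partner Rnf43 had 4, 4 and 9 estimated counts. Axin2, a scaffold of the β-catenin destruction complex whose RNA is widely used as a readout of the pathway, had 34, 19 and 53 estimated counts, or 0.188, 0.113 and 0.248 TPM. Its highest line exceeded its lowest 2.19-fold, with a 95% counting interval from 1.27 to 3.92. Its level was measurable and below 1 TPM in every line, and the highest and lowest lines differed beyond counting error.

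**Figure D2:**
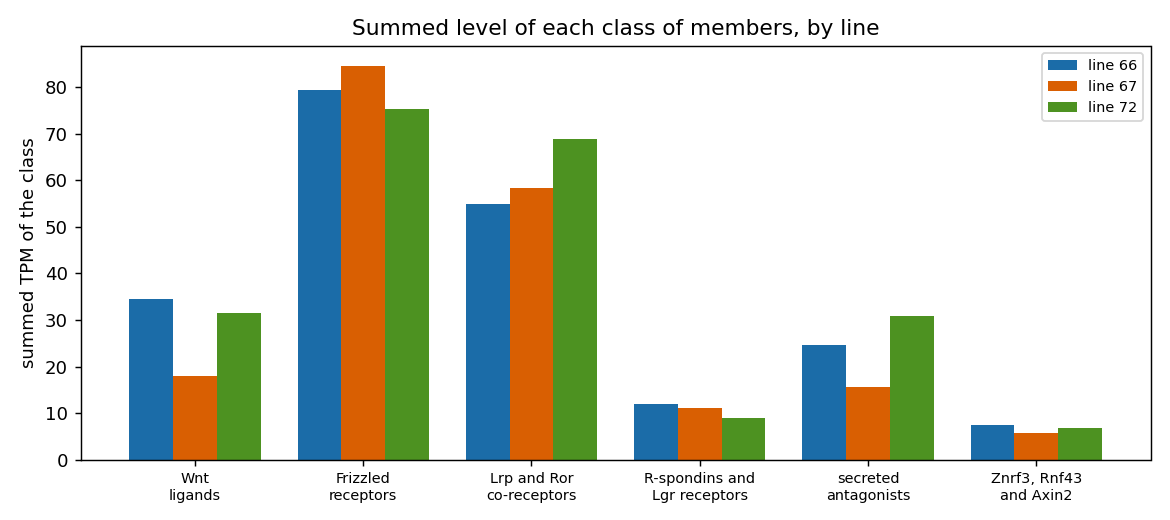
Summed TPM of the members in each class, with 1 bar per line and the y axis starting at 0. Frizzled sums lie between 75.3 and 84.6 TPM, whereas line 67 has the lowest sum of Wnt ligands (18.0 TPM) and of secreted antagonists (15.6 TPM).

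Ordered by mean TPM, the 22 members averaging 1 TPM or more gave 21 pairs of neighbours. Only 3 pairs were apart in the sense that the lowest line of the upper gene exceeded the highest line of the lower one: Lrp5 over Sfrp2, Fzd1 over Wnt9a and Znrf3 over Lgr4. The other 18 pairs overlapped. Members can therefore be placed in tiers, led by Lrp5, but not ranked one by one. All 52 members summed to 213, 193 and 222 TPM in lines 66, 67 and 72.

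Differences between the lines were read next. Among the 22 members averaging 1 TPM or more, the highest line exceeded the lowest more than 2-fold in 8 (36.4%), against 6.64% of all protein-coding genes with such a mean. Against genes with a mean of 1 to 50 TPM, which spans the levels of the members and was chosen after seeing the data, the background was 8.8%. Neither background was matched to the members in level. The median log2(TPM + 1) was 2.70 for the 22 members and 4.52 for all protein-coding genes averaging 1 TPM or more. Each line had 1 library, so these differences have no replicate check. Without line 67 the count was 4, without line 72 it was 3 and without line 66 it was 6. With counts scaled by edgeR's TMM or by DESeq2 size factors 7 members passed, of which 6 were shared with the 8. The share of all protein-coding genes was not computed at these settings, so 6.64% and 8.8% do not apply to them. A range over fewer lines also cannot exceed that over all lines.

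Fzd4 had the widest range, 3.65-fold from line 66 to line 72 (95% counting interval 3.28 to 4.08). Lgr6 was 2.98-fold higher in line 66 than in line 72 (2.63 to 3.39), Wnt7b 2.66-fold higher in line 66 than in line 67 (2.50 to 2.83) and Dkk3 2.51-fold higher in line 72 than in line 67 (1.99 to 3.19). Sfrp1 was 2.36-fold higher in line 66 than in line 67 (2.02 to 2.76), and Fzd6 was 2.08-fold higher in line 67 than in line 72 (1.95 to 2.22). Wnt5a was 2.10-fold higher in line 72 than in line 66 (1.79 to 2.46) and Sfrp2 2.04-fold higher in line 72 than in line 67 (1.90 to 2.19), and neither passed with either count scaling, where Wnt10b passed instead. Line 67 was lowest in 4 of the 8, compared with 38.8% of the 745 protein-coding genes of 1 to 50 TPM that were over 2-fold apart. The direction differed between members of 1 class, as Fzd4 was highest and Fzd6 lowest in line 72.

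**Figure D3:**
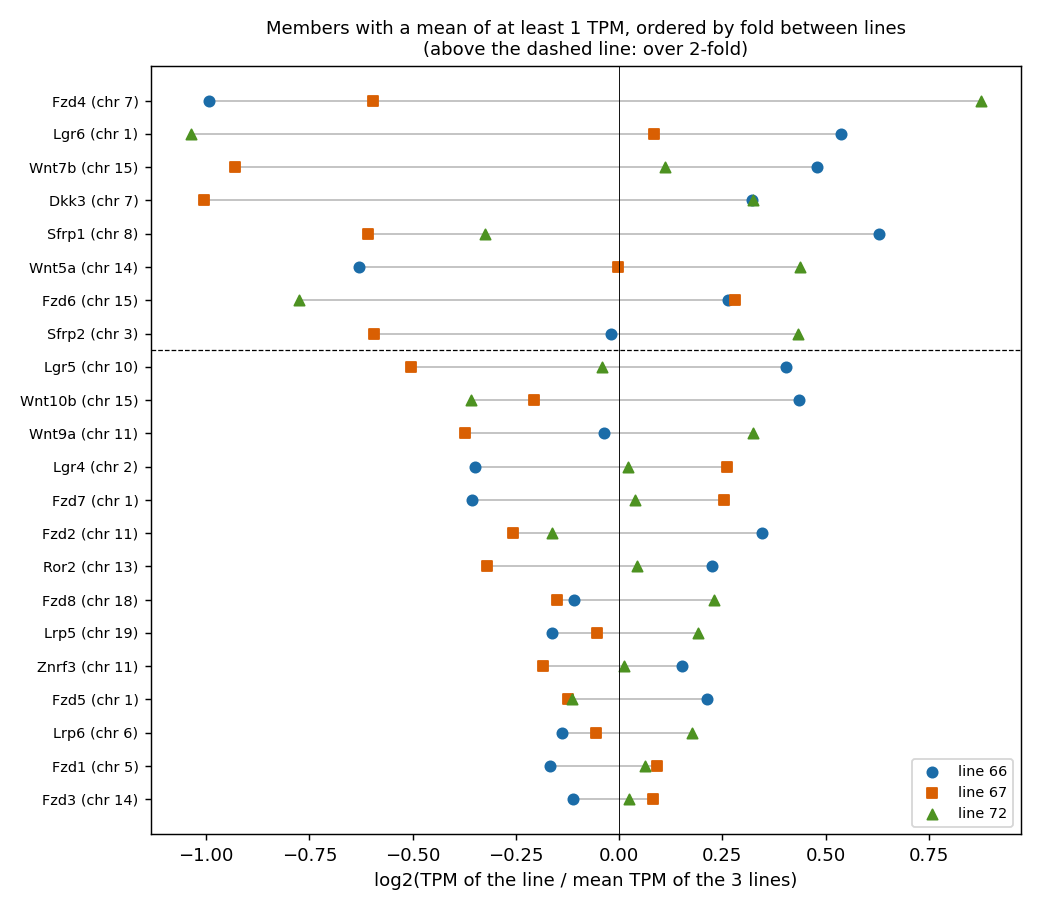
Deviation of each line from the mean of the 3 lines, as log2 of the TPM ratio, for the 22 members averaging 1 TPM or more, ordered by the fold between the highest and lowest line (chromosome in brackets). The 8 members above the dashed line exceed 2-fold, led by Fzd4 at 3.65-fold, and Fzd3 at the bottom spans 1.14-fold.

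The remaining 14 members ranged from 1.14-fold for Fzd3 to 1.88-fold for Lgr5. Some chromosomes were shifted as a whole in 1 line. Over genes averaging 10 TPM or more, the log2 ratio of line 66 to the other lines had a median of 0.33 on chromosome 11 (699 genes) and of 0.29 on chromosome 10 (427 genes), and that of line 72 a median of 0.16 on chromosome 6 (398 genes). Fzd2, Wnt9a, Znrf3 and Axin2 lie on chromosome 11, Lgr5 on chromosome 10 and Lrp6 on chromosome 6. With the shift of the chromosome removed, the range of Fzd2 went from 1.52-fold to 1.19-fold, that of Lgr5 from 1.88-fold to 1.58-fold and that of Lrp6 from 1.24-fold to 1.10-fold. None of the 8 members over 2-fold lies on these chromosomes.

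Markers of differentiating myocytes also moved between lines. The 5 markers, Myog, Mymk, Mymx, Myh3 and Acta1, all had at least 10 TPM in every line, and summed to 802 TPM in line 66, 1094 TPM in line 67 and 1384 TPM in line 72. Fzd4, Lrp5, Lrp6 and Wnt5a followed the same order of lines (4 of 22 members, 18.2%, against 27.5% of protein-coding genes averaging 1 TPM or more). The summed fibroblast markers, 0.876, 2.38 and 4.07 TPM in lines 66, 67 and 72, had this order through Col15a1 alone. Pdgfra, Dcn and Col1a1 were each highest in line 66, and Lum and Dpt had no reads. Lgr6 and Wnt10b had the reverse order (2 of 22, 9.09%, against 12.3%). Neither share exceeded the background, and the part of either marker list in the levels of single members was not tested.

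Because values were deposited per transcript, the gene levels could be split. Fzd7, Fzd2, Fzd1, Fzd4, Fzd8, Sfrp1 and Dkk3 had a single transcript with reads. Lrp5-201 held 97.6 ± 0.275% of Lrp5 TPM and Sfrp2-201 94.7 ± 7.43% of Sfrp2 TPM. Fzd6-201 held 79.6 ± 2.29% of Fzd6 TPM. Wnt7b divided among protein-coding forms with different coding lengths: Wnt7b-205 (846 coding bases) held 50.1 ± 6.50% of its TPM, Wnt7b-204 (1059) 29.8 ± 3.05% and Wnt7b-202 (1047) 16.9 ± 9.64%. Such splits are estimates of the read assignment and not direct observations.

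In Fzd3, Lrp6 and Lgr6, short transcripts annotated without a coding sequence weighed heavily on the TPM of every line while holding few reads. For Lgr5, transcripts not annotated as protein_coding held 28.3% of the TPM in line 66, but 11.7% and 7.39% in lines 67 and 72. Fzd3-201, a processed transcript of 426 bases, held 33.9 ± 6.93% of Fzd3 TPM but 1.07% of its counts, with 54.3, 77.4 and 53.9 counts in lines 66, 67 and 72. Lrp6-205, a retained intron of 941 bases, held 22.6 ± 0.264% of Lrp6 TPM, and Lgr6-203, of 360 bases, 27.8 ± 6.85% of Lgr6 TPM. Counted over protein_coding transcripts alone, Fzd3 fell from a mean of 17.0 to 11.2 TPM and from rank 4 to 8 among members, Lrp6 from 19.6 to 14.9 TPM and rank 3 to 5, and Lgr6 from 3.23 to 2.30 TPM. The higher TPM of Fzd3 in line 67 rested on Fzd3-201, since its coding transcript Fzd3-202 was lowest there. The ratio of Lrp5 to Lrp6 given above also included Lrp6-205, and over protein_coding transcripts it was 2.61 ± 0.0194 in place of 2.03. On coding transcripts 19 members reached 1 TPM in every line, with Wnt5a at 0.927 TPM in line 66 below it, and 7 of the 8 members stayed over 2-fold, without Sfrp2.

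**Figure D4:**
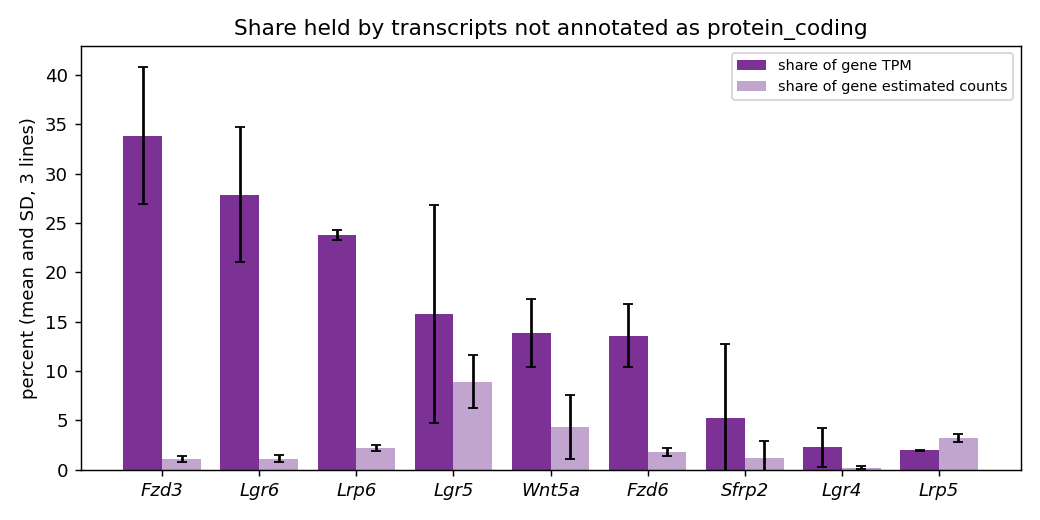
Percent of each gene's TPM (dark bars) and estimated counts (light bars) held by transcripts not annotated as protein_coding, mean with SD over the 3 lines, for the 9 members averaging 1 TPM or more in which that TPM share is at least 1%. For Fzd3 the shares are 33.9% of TPM and 1.07% of counts, and error bars are cut at 0 for Sfrp2.

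A wider list of 63 Wnt pathway genes outside the rule gave the setting of these members. Of these, 51 (81.0%) reached 1 TPM and 40 (63.5%) reached 10 TPM in every line, against the 51.9% and 36.3% of protein-coding genes given above. Secretion of Wnt ligands needs the acyltransferase Porcn and the carrier Wls, and both were read: Wls had 250, 284 and 204 TPM in lines 66, 67 and 72 and Porcn had 6.67, 5.62 and 6.60 TPM. Among other Wnt receptors, Ryk had 80.7, 96.5 and 90.9 TPM, Ptk7 69.9, 67.5 and 79.7 TPM and Musk, the muscle receptor of the neuromuscular synapse, 47.3, 80.1 and 47.4 TPM. The lowest of these values exceeded the highest TPM of any of the 52 members, which was 45.3 for Lrp5.

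Several of the other extracellular and membrane genes act together with members. Reck and Adgra2 form a receptor complex for Wnt7 ligands in brain vessels, and Reck had 1.64, 1.25 and 1.13 TPM and Adgra2 7.73, 3.10 and 3.41 TPM in lines 66, 67 and 72. Both were highest in line 66, as was Wnt7b. Adgra2 and Wnt7b were lowest in line 67, whereas Reck was lowest in line 72. The share of all genes highest in line 66 was not computed. Kremen1, a receptor through which Dickkopf proteins remove Lrp5 and Lrp6 from the surface, had 43.1, 39.7 and 55.1 TPM, whereas Kremen2 had at most 0.540 TPM. Apcdd1, a membrane Wnt inhibitor, had 27.8, 8.50 and 12.4 TPM, which exceeded Sfrp2 in line 66 only. Frzb, the relative of the Sfrp genes that the symbol rule leaves out, had 0.755, 0.198 and 0.295 TPM.

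The cytoplasmic genes of the pathway were read throughout. Of 19, 18 had at least 1 TPM and 17 at least 10 TPM in every line, with Ctnnb1, the β-catenin gene, at 580, 531 and 568 TPM and Axin1 at 35.9, 35.5 and 38.1 TPM. All 4 Tcf and Lef factors were read, Tcf7l2 at 27.9, 33.4 and 30.6 TPM, Tcf7l1 at 27.5, 28.9 and 35.4 TPM and Tcf7 at 12.8, 12.4 and 9.39 TPM. Lef1, itself induced by the pathway in many cells, had 10.3, 3.90 and 11.5 TPM. Of the 11 feedback and target genes of the list, 7 had at least 1 TPM and 4 at least 10 TPM in every line. Nkd1 had 0.454, 1.36 and 1.67 TPM, and the 3 below 1 TPM in every line were Nkd2 with at most 0.465 TPM, Notum with at most 0.0705 TPM and Sp5 with at most 0.0327 TPM. Ccnd1, Cd44 and Myc, which many other signals also induce, had means of 466, 428 and 67.2 TPM, Fst 17.8 TPM and Nfatc1 6.23 TPM. Of the 55 genes of the list averaging 1 TPM or more, 7 (12.7%) were over 2-fold apart, against 6.64% of all protein-coding genes with such a mean: Sostdc1, Apcdd1, Cthrc1, Gpc4, Adgra2, Lef1 and Nkd1. Left out in turn, a choice made after seeing the data, line 66 took the count to 1, line 67 to 6 and line 72 to 4.

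**Figure D5:**
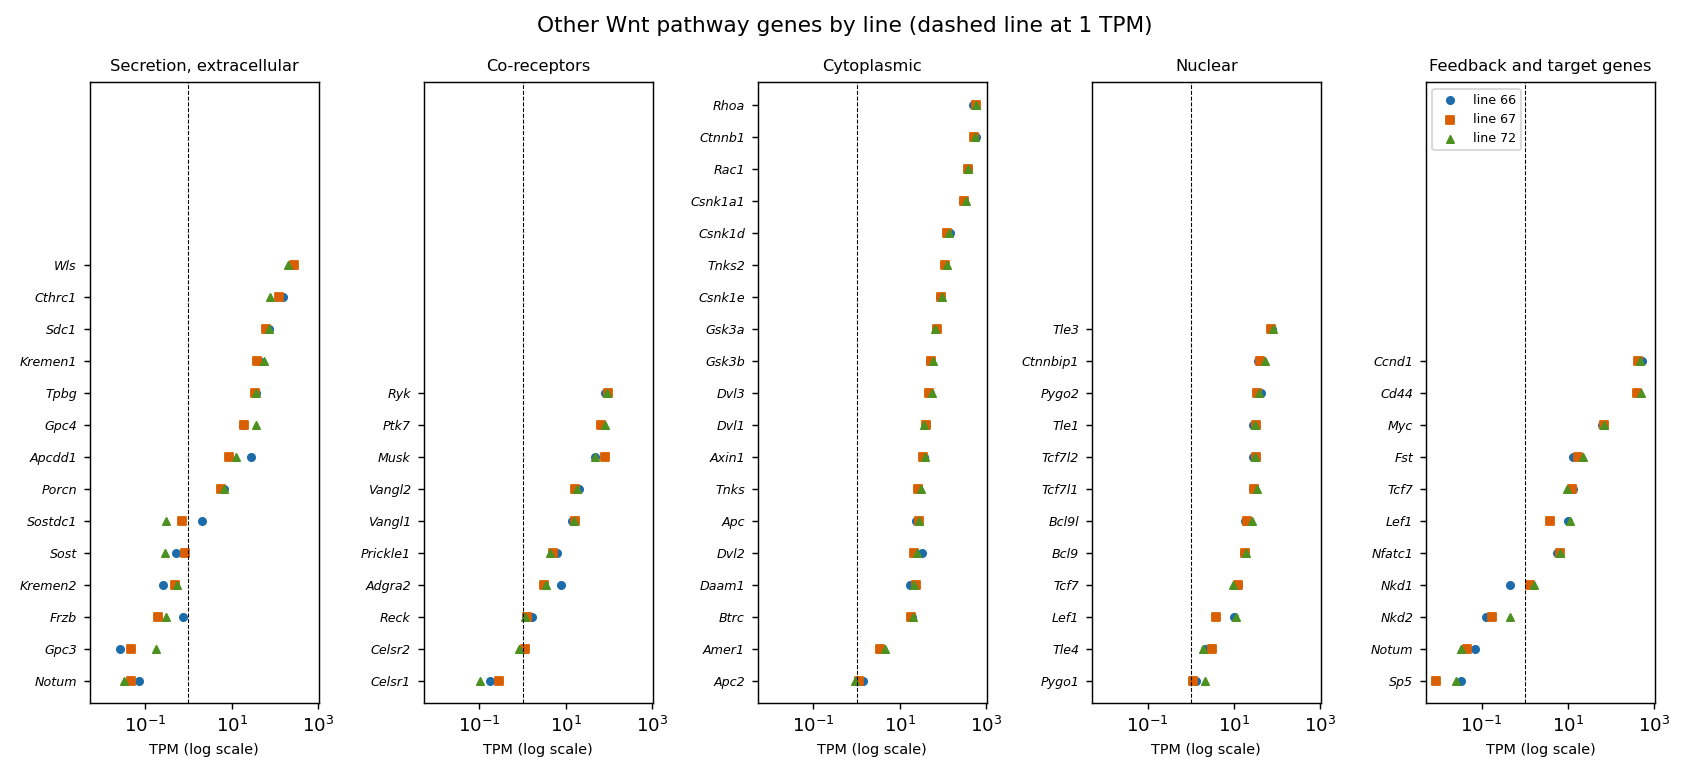
TPM of the wider Wnt pathway list by line, in 5 panels by role, on a shared log axis with a dashed line at 1 TPM and 1 point per line. Cytoplasmic genes reach up to 601 TPM, whereas Sp5 and Notum stay below 0.1 TPM.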

How the data were processed

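Poly-A-enriched, stranded libraries of 3 myoblast lines were used, with the line as the replicate. For each transcript the authors deposited estimated counts, in which a read that fits several transcripts is divided among them, without normalization, and TPM values, scaled by effective length and library. The submitters' processing notes name bcl2fastq 2.20, fastp 0.20, kallisto 0.46.1 and GRCm39. The annotation and strand setting are not given in the sources used here. Transcript and effective lengths are the other columns.

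Transcripts were matched by identifier to GENCODE M21 (GRCm38). Of 121798, 1112 were unmatched (0.493% to 0.535% of counts) and left out, and values were summed per gene. No coordinates are given because the builds differ. Members, the wider list and the markers were chosen from general knowledge with earlier results of these data known. Members with at least 1 TPM in every line were named with all values, as were those over 2-fold apart with a mean of at least 1 TPM. Others were given as ranges, except Axin2, Rnf43 and Rspo3, whose values by line were added after they were seen, and wider-list genes could be named freely. Transcripts were named for the 6 highest members and, after their values were seen, for Lgr6, whose short transcript resembled those of Fzd3 and Lrp6, and for members with a single transcript with reads. Counting intervals of ratios were exact conditional binomial (95%). Shared sequence was taken as the 31-base words that transcripts of other genes also held, and identity came from a global alignment of the longest coding sequences (Biopython 1.88). Counts were rounded for edgeR 4.0.16 and DESeq2 1.42.0 (R 4.3.3), which gave scaling factors only. Tables were handled with pandas 2.3.3 in Python 3.11.15, intervals computed with scipy 1.17.1 and plots drawn with matplotlib 3.10.9. The fold rule, the counting interval and the chromosome shift were tested on simulated counts with known changes. The spread between lines was assumed there, so the share of unchanged genes over 2-fold in these data is not known from it.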

Additional observations from a re-analysis of the deposited data

How the results depend on the processing

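The number of members with at least 1 TPM in every line (20) became 13 at 2 TPM and stayed between 19 and 24 under the other settings, with 20 to 22 when each line was left out. The median level (0.48 on the log2 scale) became -1.04 with a pseudocount of 0.1, 2.70 over members with a mean of at least 1 TPM and 0.92 with CPM, and stayed between 0.46 and 0.49 when each line was left out. The 8 members over 2-fold apart became 3 at a mean of at least 10 TPM, 14 when only 10 counts in 1 line were asked for and 14 at 1.5-fold. Leaving out each line gave 3 to 6 of them, with 3 without line 72 and 4 without line 67. For none of these settings was the share of all protein-coding genes computed, so the counts have no background. The 7 genes of the wider list over 2-fold apart became 1 to 6 when each line was left out, an alternative chosen after seeing the data, with 1 without line 66 and 4 without line 72. The difference between the highest and lowest line of Fzd3 changed sign with TMM (-0.0732) and DESeq2 scaling (-0.0697), which weigh its short transcript Fzd3-201 by counts, and that of Znrf3 changed sign with the chromosome shift removed (-0.0113). On protein_coding transcripts alone, 2 of 21 levels moved by more than 1 SD. No paired analysis was possible because all 3 libraries belong to a single condition. Depth limits genes with few counts, such as Axin2 and Rnf43, and differences between lines cannot be separated from those between separately prepared libraries.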
